A study of Drosophila melanogaster with 48 samples.

Results

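The genes described here were those whose ribosome-bound RNA in fly astrocytes was fitted with a peak in the early subjective night. Of 17558 genes in the deposited tables, 9392 had a mean of 20 counts or more. The counts of each library were divided by its median-of-ratios size factor, which places libraries of unequal depth on one scale, and log2 of the value plus 1 was fitted with a cosine and a sine of 24 h and a term for the biological replicate. An F-test p under 0.05 for cosine and sine together, without adjustment for the number of genes, was met by 774 genes (8.24%). In 219 of these (2.33% of the genes tested) the fitted peak lay from 12 to under 18 h after subjective dawn. Leaving out 18 genes that the study discusses by name left 201 members. The members were chosen by these same values, so that amplitudes, peak times and differences between clock hours are given as a description of the members and were not tested.

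The study profiled adult Drosophila melanogaster by translating ribosome affinity purification (TRAP), in which a tagged ribosomal protein made in one cell type is pulled down and the RNA bound to the ribosomes is sequenced. All flies carried eaat1-Gal4 and UAS-EGFP-L10a, the tagged ribosomal protein, together with elav-Gal80 to block the driver in neurons, and no other genotype was compared. The flies were kept in light and darkness (LD) and then in constant darkness (DD), and heads were pooled every 4 h from 0 to 44 h in DD, for 12 time points in each of 2 biological replicates from independent crosses. The driver labels mainly astrocytes but also some cortex glia, so that the profile is not of 1 glial type alone, and ages are not given in the labels.

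Circadian clocks in flies are loops in which the proteins CLK and CYC switch on genes that carry E-box elements, whose products later shut off CLK and CYC. Many direct targets of this pair have RNA that is highest around the start of the night. Astrocytes take up and recycle transmitters, supply metabolites to neurons and respond to infection and oxidants. A TRAP level reflects both how much of an RNA is present and how much of it is bound to ribosomes, and not every bound RNA is being translated.

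The 24 libraries held 8203989 to 32826712 counts on genes in replicate 1 and 6371034 to 37267216 in replicate 2, where 2 technical data sets of each library were summed. The libraries stood apart in 3 cases that touch the members. In the 16 h library of replicate 1, 9.47% of alignments were not unique, against 21.7% to 36.9% in the other libraries of replicate 1. Its labels also differ: the letter in the titles is a or b at the other time points of replicate 1, b at 4, 12, 20 and 28 h and a at the remaining 7, with the same letter in both data sets, whereas the 16 h data sets carry d and e. What the letters stand for is not given in the labels. In the 28 h library of replicate 2, 47.0% of alignments were not unique and 49.6% of counts fell on 10 genes, against 9.20% to 14.6% in the other libraries. The 44 h library of replicate 2 held the highest value of 23.7% of all genes tested. The first of these 3 libraries lies at the members' peak and the second at their trough, and amplitudes are therefore also given without both. For the labelled cell type, the astrocyte genes e and Gabat averaged 542 and 1644 normalized reads per library. No whole-head library was compared, so that these levels do not test the cell type. The photoreceptor genes Arr1, inaD, Rh5, Rh6 and chp were also present, with a summed level of 15536 to 34289, and other astrocyte and neuron markers were not analysed here because their identifiers were not paired with names.

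As a group, the members were high around 16 and 40 h and low around 4 and 28 h, on both days of DD, as the rule requires of the fitted curve. The deviation of each member from its replicate mean, in units of its own standard deviation, averaged 0.75 in replicate 1 and 0.67 in replicate 2 at 16 h, and 0.68 and 0.76 at 40 h. At 4 h the averages were -0.73 and -0.84, and at 28 h they were -0.65 and -1.05. The libraries at 12, 20, 36 and 44 h lay between these extremes, from 0.27 to 0.52, and all libraries from 0 to 8 h and from 24 to 32 h lay below 0. In single libraries 162 and 170 members were above their replicate mean at 16 h, and 179 and 176 at 40 h. Only 45 and 31 members were above it at 4 h, and 44 and 28 at 28 h. The lowest average of all belonged to the 28 h library of replicate 2, which held the lowest value of 55 members (27.4%) but of 7.11% of all genes tested. The 16 h library of replicate 1 held the highest value of 25 members (12.4%) and of 5.23% of all genes. The part of these libraries in the choice of members is shown by leaving them out, as given further on.

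**Figure D1:**
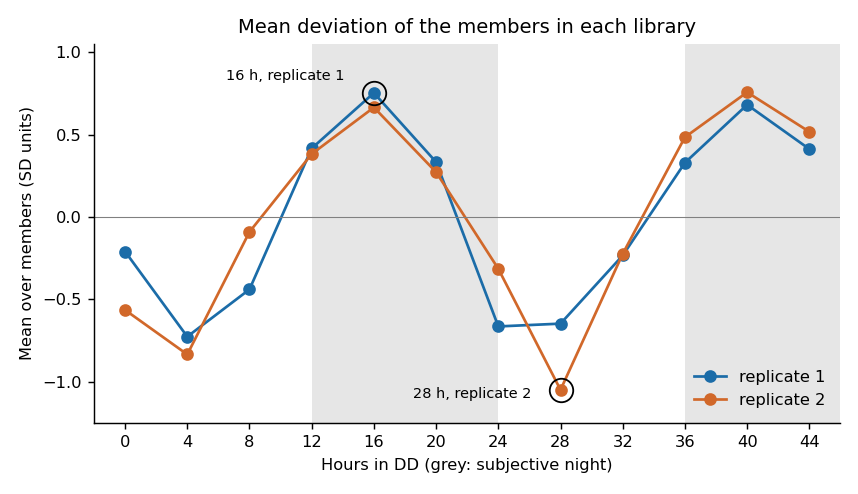
Mean deviation of the 201 members from their replicate mean, in units of each member's standard deviation, against hours in DD, with 1 point per library, a colour per replicate and the subjective night in grey. Both replicates are below 0 from 0 to 8 h and from 24 to 32 h and highest at 16 or 40 h, and the circled libraries are the 16 h library of replicate 1 and the 28 h library of replicate 2.

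**Figure D2:**
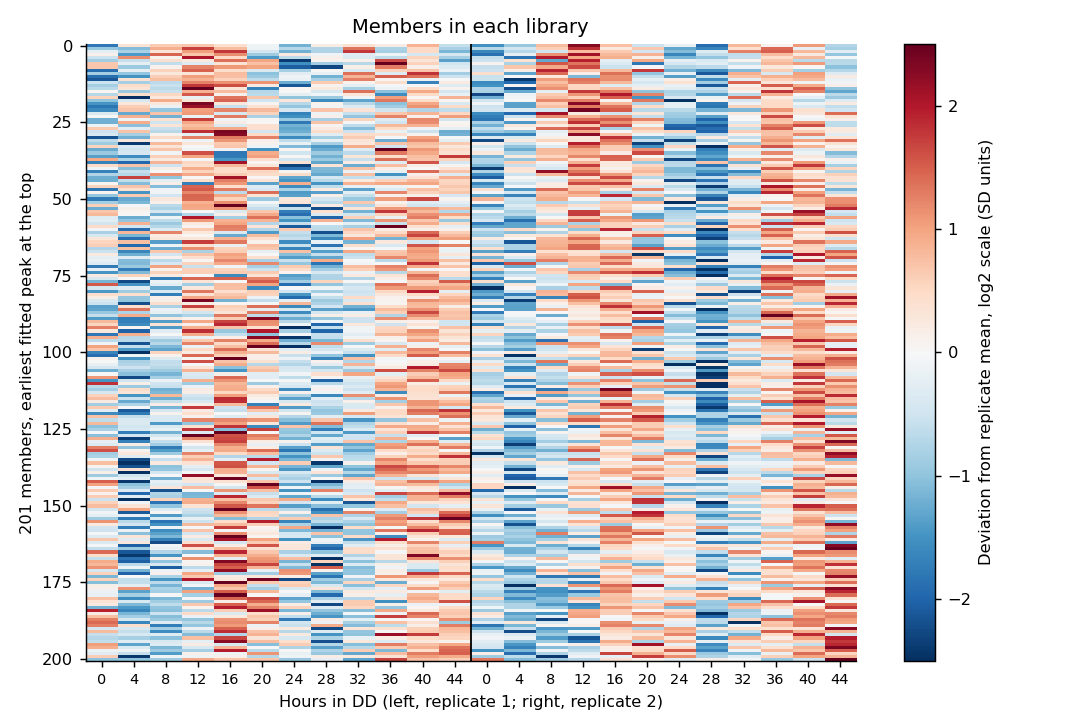
The same deviations for each member (rows, earliest fitted peak at the top) in each library (columns, replicate 1 at the left and replicate 2 at the right), with red above and blue below the replicate mean. The band of high values shifts to later columns from the top to the bottom row, and single cells in every row depart from it.

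Fitted peaks crowded toward the end of the interval. There were 13 members with a peak from 12 to 13 h, 23 from 13 to 14 h, 29 from 14 to 15 h, 37 from 15 to 16 h, 48 from 16 to 17 h and 51 from 17 to 18 h, with a median of 15.9 h. The neighbouring intervals, chosen by the same rule, held 111 genes from 6 to 12 h and 128 genes from 18 to 24 h, and the interval from 0 to 6 h held 279. The fitted log2 amplitude, which is the height of the curve above its mean, ranged from 0.12 to 1.74 with a median of 0.29, against a median of 0.16 over all genes tested. The fitted peak was a median of 1.49 times the fitted trough. It was at least 2 times the trough in 42 members and under 1.5 times in 102. Mean normalized counts ranged from 19.0 to 40048, with a median of 303 against 182 for all genes tested.

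**Figure D3:**
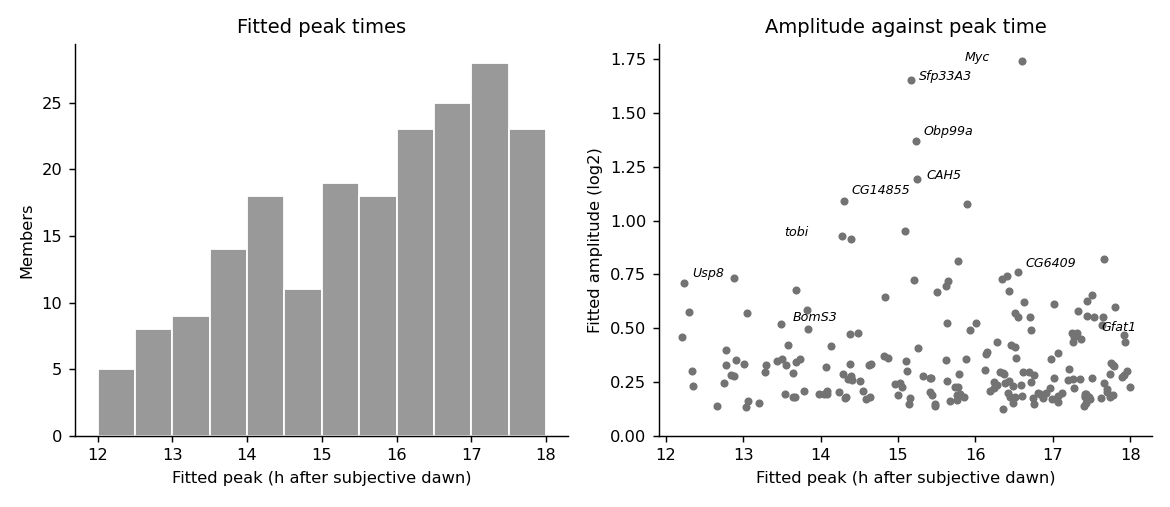
Number of members by fitted peak time in bins of 0.5 h (left) and fitted log2 amplitude against fitted peak time (right), with 1 point per member. Most points lie under an amplitude of 0.5 at every peak time, and Myc, at 1.74, has the largest amplitude.

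In the raw libraries the groups of clock hours mostly overlapped. All 4 libraries at 16 and 40 h were above all 4 at 4 and 28 h in 57 members, where 2.02% of all genes tested showed this, a share that the choice of members raises by itself. All 8 libraries at 12, 16, 36 and 40 h were above all 8 at 0, 4, 24 and 28 h in 2 members, r and CG14855, against 0.0532% of all genes tested. When 1 replicate was fitted alone, the peaks of the 2 replicates were within 4 h of each other in 181 members (90%, against 36.8% of all genes) and both inside the interval in 138. The peaks of the 2 days were within 4 h of each other in 182 members (90.5%, against 36.7%) and both inside the interval in 136. The choice of members raises these shares too, since its fit pooled both replicates and both days. In the interval from 0 to 6 h, chosen by the same rule, replicate peaks were within 4 h in 255 of 279 genes. An F-test p under 0.05 in each replicate fitted alone was met by 20 members, and the share of all genes is not given here. The amplitude was larger on day 1 in 98 members (48.8%, against 49.9% of all genes) and larger in replicate 1 in 87 (43.3%, against 35.5%).

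The gene r (rudimentary, chrX:16655359-16668712 in Release 6 of the genome) encodes the enzyme of several activities that opens the synthesis of pyrimidines from simple precursors. Its normalized read counts from 0 to 44 h were 263, 221, 558, 521, 668, 1442, 281, 316, 395, 869.6, 719.8 and 707 in replicate 1. In replicate 2 they were 220.4, 284, 327, 348, 417, 620.1, 255, 187, 248, 576, 456 and 325. Every library from 12 to 20 h and from 36 to 44 h was above every library at 0, 4, 24 and 28 h. The highest, 1442 at 20 h, occurred in replicate 1 alone. Counts averaged 565 ± 151 at 16 and 40 h against 252 ± 58.7 at 4 and 28 h (SD, n = 4 libraries each), 2.24 times higher, and the log2 amplitude was 0.72 ± 0.13 (SE) with all libraries and 0.74 ± 0.15 without the 16 h library of replicate 1 and the 28 h library of replicate 2.

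Gfat1 (chr3R:4126442-4137882), the enzyme that commits fructose-6-phosphate to amino sugars and so limits the synthesis of the sugar donors for glycosylation and chitin, had the lowest F-test p. Its counts in replicate 1 were 513, 474, 388, 564, 531, 716, 521, 433, 399, 659.7, 750.3 and 789 from 0 to 44 h. In replicate 2 they were 434, 261, 345, 389.7, 632, 519, 469, 332, 321, 398, 588 and 476. Counts averaged 625 ± 93.1 at 16 and 40 h against 375 ± 96.7 at 4 and 28 h (SD, n = 4) without overlap, although the 0 and 24 h libraries of replicate 1 reached 513 and 521. The curve peaked at 17.9 h with an amplitude of 0.44 ± 0.050 (SE), and of 0.49 ± 0.044 without both libraries.

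CG14855, the other member with separated hours, had low counts. Replicate 1 held 13.4, 19.9, 25.9, 40.05, 67.97, 37.4, 11.1, 19.3, 34.9, 43.4, 50.5 and 41.5 normalized reads from 0 to 44 h. Replicate 2 held 19.8, 22.01, 20.6, 53.7, 47.03, 27.2, 5.54, 7.46, 21.6, 71.5, 55.5 and 32.7. The night libraries at 12, 16, 36 and 40 h spanned 40.05 to 71.5 and those at 0, 4, 24 and 28 h spanned 5.54 to 22.01. The curve peaked at 14.3 h and its amplitude was 1.09 ± 0.14 (SE).

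CG6409 (chr3L:10880699-10882386) combined a large amplitude with a high count. Its values in replicate 1 were 3924, 4982, 3073, 4595, 7979, 4194, 3611, 2447, 2554, 7326, 8639 and 6624 from 0 to 44 h. In replicate 2 they were 5179, 2209.6, 5597, 7606, 9578, 7731, 7973, 3099.7, 5925, 8229, 11056 and 12517. The second day of replicate 2 ended at its highest value, at 44 h, and the 24 h library of replicate 2 lay within the range of the libraries at 12, 16, 36 and 40 h of replicate 1. Counts averaged 9313 ± 1334 at 16 and 40 h against 3185 ± 1256 at 4 and 28 h (SD, n = 4), and the amplitude of 0.76 ± 0.11 (SE) was 0.72 ± 0.13 without both libraries.

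Obp99a (chr3R:29671657-29672334), of the family of secreted odorant-binding proteins that carry small hydrophobic molecules, had the largest amplitude after Myc among members with a mean of 100 counts or more. Replicate 1 held 722, 1014, 4856, 4961, 5113, 5222, 3080.1, 1943, 2451, 1496, 6164 and 4189 from 0 to 44 h. Replicate 2 held 356, 589.6, 2043, 3778, 5322, 6740.1, 389.7, 205, 559.7, 1913, 2197 and 1140.2. At 8 h replicate 1 was already close to its values at 12 to 20 h, and the 36 h library of each replicate was lower than the 40 h library. The mean was 4699 ± 1729 at 16 and 40 h against 938 ± 747 at 4 and 28 h (SD, n = 4), 5.01 times higher, and the amplitude was 1.37 ± 0.28 (SE). Fitted alone, replicate 1 gave an amplitude of 0.89 and replicate 2 of 1.85. Obp99a was the only one of 5 odorant-binding protein genes with a name here that met the F-test limit.

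Usp8 (chr3R:21134262-21138214), a deubiquitinase that acts at endosomes, peaked early. Its counts were 184, 173, 438, 639.7, 417, 270.1, 206, 203, 535, 198, 362 and 197 in replicate 1 and 175, 195, 319, 567, 271, 331, 131, 112, 294, 469, 219 and 163 in replicate 2 from 0 to 44 h. The highest libraries were at 12 h in both replicates on the first day, and at 32 h in replicate 1 but 36 h in replicate 2 on the second. The fitted peak was 12.2 h, close to the lower limit of the interval, with an amplitude of 0.71 ± 0.14 (SE). Hrs, a subunit of the first endosomal sorting complex, peaked later at 17.4 h and had an amplitude of 0.18 ± 0.066. Uba2, a subunit of the enzyme that activates SUMO, and Prosalpha3, a subunit of the proteasome core, had amplitudes of 0.16 ± 0.059 and 0.19 ± 0.070.

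tobi (chr3R:25344761-25346921), an alpha-glucosidase known as a target of the insulin-producing cells, held 403, 414, 1747, 1502, 1194, 1036, 1036, 267, 1281, 224, 818 and 565 in replicate 1. In replicate 2 its counts were 138, 312, 873, 1733, 1088, 734, 233, 112, 204, 914, 682 and 754. On the second day the 36 h library of replicate 1 fell to 224, below all libraries of that replicate, whereas that of replicate 2 was its highest of that day. The amplitude was 0.93 ± 0.28 (SE), 0.41 in replicate 1 alone and 1.45 in replicate 2 alone. Other members of sugar and energy use varied less. Mal-B2, a maltase, had an amplitude of 0.20 ± 0.075, Pfrx, which makes the activator of phosphofructokinase, of 0.18 ± 0.057, and SNF4Agamma, a subunit of the energy sensor AMPK, of 0.28 ± 0.085. For Fatp3, a fatty acid transport protein, it was 0.42 ± 0.093 (SE).

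**Figure D4:**
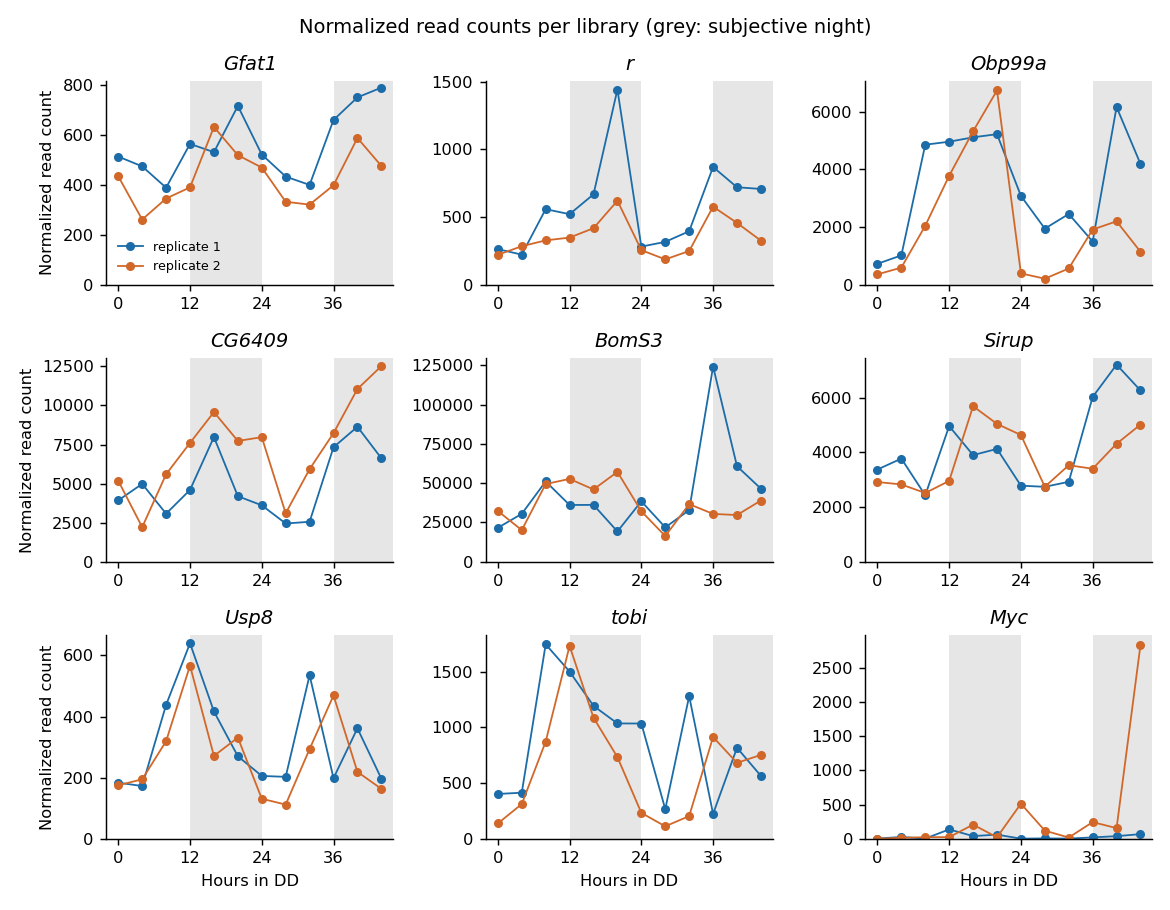
Normalized read counts of 9 members in each library against hours in DD, with 1 point per library, a colour per replicate, linear axes from 0 and the subjective night in grey. For r and Gfat1 the replicates follow each other, whereas the Myc panel is set by a single library of replicate 2 at 44 h with 2836 counts.

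Apart from the members taken by size of effect or abundance, 51 members of known function were sorted into 11 groups of 2 to 7 genes by role. The sorting was done after the values were seen, over the 163 members with a symbol, and nothing is implied about whether a role is commoner among the members than among other genes. Names were available for 18.9% of the genes tested and mainly for genes of low p in the study's own table, so that no share of a pathway is complete. Of the genes kept in each interval of peak time, 73.4% to 81.1% had a name. Counts of named genes that met the F-test limit are therefore not comparable with the 8.24% of all genes tested.

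Enzymes of one-carbon metabolism, which passes single carbon units between folates, methionine and nucleotides, had 3 members. CG8665, a dehydrogenase of formyl-tetrahydrofolate, averaged 9774 ± 1782 at 16 and 40 h against 4497 ± 2467 at 4 and 28 h (SD, n = 4) and these libraries did not overlap. Its amplitude was 0.92 in replicate 1 and 0.24 in replicate 2. AhcyL2, an adenosylhomocysteinase-like protein of the methionine cycle, averaged 185 ± 13.2 at 16 and 40 h against 129 ± 40.04 at 4 and 28 h and peaked earliest of all members, at 12.2 h. Mthfs, which returns formyl-tetrahydrofolate to the active pool, had an amplitude of 0.30 ± 0.086 and a peak at 12.3 h.

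Members that make or use glutathione, the main thiol antioxidant, included Gclm, the modifier subunit of the enzyme for its first step. The lowest, median and highest Gclm counts over the 24 libraries were 1693, 3176 and 5256, with an amplitude of 0.33 ± 0.068 (SE) and a peak at 13.6 h. Ggt-1, which splits glutathione outside the cell, had an amplitude of 0.25 ± 0.091. maf-S, the small Maf partner of the oxidant-responsive factor CncC, had 0.26 ± 0.060 and a later peak at 17.2 h. UK114, of a family that removes reactive imines and one of the most abundant members, ran from 3853 to 10113, with an amplitude of 0.16 ± 0.060, among the smaller ones here.

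Lysosomal hydrolases and carriers peaked between 12.4 and 15.6 h. CtsL1, a cathepsin L protease, averaged 3504 ± 691 at 16 and 40 h against 2599 ± 433 at 4 and 28 h (SD, n = 4), with the highest 4 h or 28 h library, 3069, above the lowest night library, 2949. Ect3, a beta-galactosidase, had the largest amplitude of the group, 0.47 ± 0.10, and Naglu, which cleaves acetylglucosamine from heparan sulphate, had 0.41 ± 0.13. Gba1b, the glucocerebrosidase, and Npc2b, which binds sterols, had amplitudes of 0.26 ± 0.10 and 0.23 ± 0.072. Without both libraries 4 of these 5 genes still met the F-test limit.

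Genes of immune recognition and defence outside the signalling list formed a group of 6. BomS3, a short Bomanin peptide induced by the Toll pathway, was the most abundant of all members. Its counts were 21568, 30468, 51103, 36102, 36173, 19249, 38440.2, 21858, 32852, 124213, 60789.6 and 46482 in replicate 1 and 32256, 20116, 49436, 52707, 46008, 57165, 32099.8, 16342, 36640.0, 30434, 29701 and 38949 in replicate 2 from 0 to 44 h. The value of 124213 at 36 h in replicate 1 stood above the next highest library, 60789.6, and the libraries at 8 h were higher than those at 16 h in both replicates. Listericin, an antibacterial peptide, averaged 7438 ± 311 at 16 and 40 h against 4040.0 ± 1661 at 4 and 28 h (SD, n = 4), with no overlap, and had an amplitude of 0.49 ± 0.11 (SE). Recognition and cascade proteins had amplitudes from 0.18 to 0.40. GNBP3, which binds beta-glucan of fungi, had an amplitude of 0.18 ± 0.064, the protease ea (easter) of 0.21 ± 0.061, the serpin Spn88Ea of 0.21 ± 0.059, and the protease Hayan of 0.40 ± 0.12 at 118 counts on average. No member belonged to the list of immune signalling and antimicrobial peptide genes, in which 8 of 27 genes were found by name and 4 met the F-test limit, 1 of them among the genes left out.

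Members for mitochondrial import, assembly and translation peaked from 15.4 to 17.5 h. Sirup (chr2L:7998869-7999676), an assembly factor of succinate dehydrogenase, held 3373, 3773, 2431, 4962, 3901, 4128, 2782, 2740.4, 2923, 6029, 7210.2 and 6266 in replicate 1. In replicate 2 it held 2916, 2827, 2513, 2957, 5689, 5043, 4636, 2742, 3530.4, 3401, 4316 and 5017. Counts averaged 5279 ± 1497 at 16 and 40 h against 3021 ± 503 at 4 and 28 h (SD, n = 4), without overlap, and the curve peaked at 17.3 h, 0.48 ± 0.092 (SE) above its mean. Sdhaf3, another assembly factor of the same complex, had 0.29 ± 0.085 and a peak at 16.3 h. Hsc70-5, the Hsp70 of the mitochondrial matrix, and blp, a subunit of the import motor, had amplitudes of 0.14 ± 0.051 and 0.20 ± 0.059. The translation factors mEFTu1 and mRRF1 had 0.20 ± 0.058 and 0.17 ± 0.060, and Stoml2, a stomatin-like inner membrane protein, had 0.19 ± 0.052.

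Complex I of the respiratory chain contributed the only members from 14 named subunits of oxidative phosphorylation. ND-75 held 7573, 3817, 4285, 4589, 5876, 7876, 4197, 4325, 4266, 6269, 5495 and 5915 in replicate 1 and 3392, 3957, 4040.4, 4790.4, 4534, 4007, 4298, 3275, 3386, 3916, 4901 and 4247 in replicate 2 from 0 to 44 h, and its 0 h library of replicate 1, at 7573, was nearly as high as its 20 h library. Its amplitude was 0.25 ± 0.065 (SE), that of ND-42 was 0.19 ± 0.068 and that of ND-30 was 0.15 ± 0.058, with peaks from 16.5 to 17.7 h. Without both libraries 1 of the 3 met the F-test limit. The highest library of ND-42 and of ND-30, at 6126 and 4647, was at 28 h in replicate 1, among the low hours of the members. Counts of ND-42 and ND-30 at 16 and 40 h averaged only 1.17 and 1.16 times those at 4 and 28 h, with overlap. Among 13 named mitochondrial ribosomal proteins, 6 met the limit with all libraries and 3 were members, mRpL9 at 0.29 ± 0.077, mRpL27 at 0.19 ± 0.064 and mRpS25 at 0.19 ± 0.071. None of these 3 met it without both libraries, and the lowest count of each was in the 28 h library of replicate 2. Of 15 named cytosolic ribosomal proteins, 0 met the limit. Genes with a name were mainly those of low p, so that these counts do not show a role to be commoner or rarer among members.

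RNA-handling and chromatin members had small amplitudes. SC35 and su(w[a]), splicing factors rich in arginine and serine, had 0.25 ± 0.056 and 0.23 ± 0.066, and hfp, a splicing factor of the PUF60 family, 0.18 ± 0.056. TBPH, the fly TDP-43, averaged 543 ± 89.2 at 16 and 40 h against 444 ± 15.8 at 4 and 28 h (SD, n = 4) without overlap, although its ratio was only 1.22. Gle1, for mRNA export, Slbp, which binds the stem-loop of histone mRNA, and Rcd-1, of the CCR4-NOT deadenylase, had amplitudes of 0.20 ± 0.073, 0.15 ± 0.054 and 0.17 ± 0.046. E(z), the methyltransferase of Polycomb repression, had 0.22 ± 0.077, and wde, a cofactor of the SETDB1 methyltransferase, 0.27 ± 0.084. HmgZ, a high mobility group protein, had 0.41 ± 0.13 and its highest value in the 44 h library of replicate 2. Of these 4 chromatin genes, Ing3 being the last, 1 met the limit without both libraries.

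Members for ion transport and cell recognition included Slob, which binds the Slowpoke potassium channel. Its counts were 615, 489, 760.2, 1003, 1328, 558, 420.0, 499, 1321, 486, 809.6 and 430.2 in replicate 1. In replicate 2 they were 517, 728, 791, 1294, 1235, 801, 633, 850.5, 1562, 1718, 1320.5 and 866. The highest libraries were at 16 and 32 h in replicate 1 and at 36 and 32 h in replicate 2, and the fitted peak was 12.3 h with an amplitude of 0.58 ± 0.11 (SE). Nha2, a sodium/proton antiporter, averaged 416 ± 40.2 at 16 and 40 h against 309.9 ± 81.1 at 4 and 28 h (SD, n = 4), and KCNQ, a voltage-gated potassium channel, 111 ± 31.6 at 16 and 40 h against 74.3 ± 23.2 at 4 and 28 h. The receptor robo1, which reads Slit, had an amplitude of 0.37 ± 0.14 at a mean of 65.5 counts, and dpr6, an immunoglobulin protein of neuronal contacts, 0.92 ± 0.34 at 22.9 counts. Whether RNA of such genes comes from astrocytes or from other cells of the head was not tested. The named markers of other cells, none of them members, gave these values. The summed photoreceptor genes spanned 15536 to 23257 in the 8 libraries at 12, 16, 36 and 40 h and 18878 to 34289 at 0, 4, 24 and 28 h. For wrapper, Indy, Tret1-1 and zyd, genes of other glia, the spans were 2153 to 3843 and 2459 to 3291, and for e and Gabat they were 1585 to 2568 and 1417 to 3228. The hemocyte genes Sr-CI and NimC1 summed to 68.1 to 142 and 77.0 to 144, and the fat body gene AkhR ranged from 867 to 1930 and from 833 to 1722. Some of these markers met the same F-test limit with other peak times, Arr1 at 1.47 h, Indy at 0.45 h, AkhR at 6.61 h and Rh6 at 18.7 h, with log2 amplitudes of 0.34, 0.35, 0.29 and 0.40. Among the 14 markers found these were the ones to meet it, and their part in the members' values was not tested. In such bulk libraries fewer cells of a type and less RNA per cell cannot be told apart.

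The remaining members of lowest F-test p were CG10175, CG31100, rswl and lncRNA:CR42765, a long non-coding RNA. Counts of lncRNA:CR42765 averaged 91.5 ± 34.7 at 16 and 40 h against 27.8 ± 9.31 at 4 and 28 h (SD, n = 4) without overlap, with a peak at 17.7 h. CG31100 averaged 259.6 ± 23.1 at 16 and 40 h against 139 ± 55.5 at 4 and 28 h, CG10175 192 ± 37.2 at 16 and 40 h against 100.3 ± 34.1 at 4 and 28 h and rswl 272 ± 47.2 at 16 and 40 h against 181 ± 38.2 at 4 and 28 h, each without overlap. Cyp6d5, the only member among 28 named cytochrome P450 genes, of which 15 met the limit and 3 were left out as named by the study, had an amplitude of 0.25 ± 0.090 (SE), and 0 of 1 met the limit without both libraries. In this list too, genes with a name were mainly those of low p. The clock gene list gave 0 members, since 4 of its 5 genes that met the limit, of 6 found, were left out as named by the study and the other peaked outside the interval.

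Myc (chrX:3373159-3391697), the transcription factor for growth and ribosome production, had the largest amplitude and the least even counts. Replicate 1 held 2.98, 26.6, 2.75, 137, 39.6, 60.5, 2.14, 6.03, 2.95, 20.4, 38.5 and 67.9 from 0 to 44 h. Replicate 2 held 0, 13.8, 23.2, 24.2, 207, 22.2, 513, 119, 18.6, 244, 156 and 2836. The 44 h library of replicate 2 was 5.52 times the next highest, and the 24 h library of replicate 2, in the subjective morning, was higher than any night library except that one. The amplitude was 1.74 ± 0.65 (SE), and without the 44 h library of replicate 2 it was 1.51 ± 0.60 and Myc no longer met the F-test limit. That library held the highest value of 31 members (15.4%), against a larger share, 23.7%, of all genes tested. In mahe, Su(Tpl) and CG5953 it was 3.72, 2.20 and 2.15 times the next highest. Without it mahe, Su(Tpl) and CG5953 no longer met the limit, and 170 of the 201 members did.

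Leaving out both other libraries that stand apart kept 130 of the 201 members under the F-test limit, against 148 without the 16 h library of replicate 1 alone and 146 without the 28 h library of replicate 2 alone. Over all genes the rule, with its interval of peak times, then gave 226 genes without both, 125 of them members. Without the 16 h library it gave 254, with 145 members, and without the 28 h library 188, with 142 members. The amplitude without both was a median of 0.96 times that with all libraries, from 0.58 to 1.32, and was lower in 121 members. With the letter of the titles as a block in place of the replicate alone, 159 members met the limit, and the amplitude was a median of 0.997 times the main one. A subset of 40 members kept its p under 0.05 and its peak in the interval in all 14 other settings of scaling, filter, pseudocount, replicate term, data sets and libraries that were tried, short of dropping a whole replicate. One of these settings, a mean of 100 counts or more, leaves 34 members untested, CG14855 and lncRNA:CR42765 among them, which therefore could not belong to the 40. The subset includes r, Obp99a, CG6409, CG10175, CG31100, rswl, Nha2, Sirup, Ect3, Naglu, CtsL1, Listericin, Hayan, Gclm, maf-S, Mthfs, CG8665, Fatp3, ND-75, su(w[a]), sif and HmgZ, where the amplitude of r ranged from 0.71 to 0.76 and that of Obp99a from 1.25 to 1.49. Gfat1, whose fitted peak of 17.9 h lies close to the limit of 18 h, is not among them, and whether its p or its peak left the limits is not given here.

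**Figure D5:**
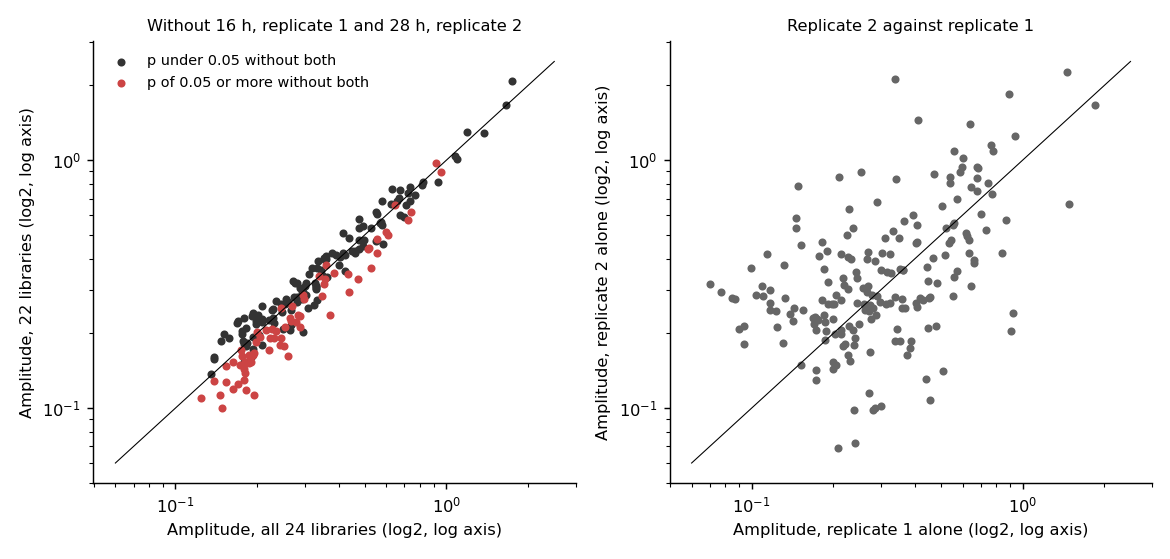
Fitted log2 amplitude of each member without the 16 h library of replicate 1 and the 28 h library of replicate 2 against that with all 24 libraries (left, red where the p was 0.05 or more without both) and in replicate 2 against replicate 1 fitted alone (right), on log axes with the line of equality. Left, points lie near the line with more below it than above; right, the scatter about the line is wide at low amplitudes.

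The same contrast in a model of the counts themselves describes the members again. With edgeR's quasi-likelihood test and adjustment over all genes, 15 of the 201 members were called at 24 h, where 0.586% of all genes tested were called. The 15 were Gfat1, CG6409, CG14855, Usp8, lncRNA:CR42765, CG2681, CG31100, Slob, CG10175, r, Sirup, AhcyL2, rswl, CG9759 and CG10237. DESeq2 called 34 members of 142 genes in all, and limma 18 of 65. The rule's own p, adjusted over all genes, was under 0.05 in 15 members and 59 genes in all.

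Measures that the choice of members did not use were tested with edgeR over all 9392 genes. Since a small residual helps a gene to pass the F-test, members can have small effects in those tests that share the residual. The level on day 2 differed from day 1 in 0 members after adjustment, with 0% of all genes called. At an unadjusted p under 0.05 there were 23 members (11.4%) against 15.9% of all genes, and DESeq2 and limma also called 0 members. The lowest p among members with a symbol was that of Hayan, which was 0.49 lower on the log2 scale on day 2 (edgeR, adjusted p = 0.27).

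A component of 12 h added to the 24 h terms, which describes the shape of the daily curve, was called in 0 members, with 0% of all genes called. The unadjusted p was under 0.05 in 6 members (2.99%) against 8.13% of all genes, and DESeq2 and limma called 0. The members of lowest p were CG18302 and yellow-d, of the yellow family of secreted proteins, with the maltase Mal-B2 and Cyp6d5 also under 0.05 before adjustment (edgeR, lowest adjusted p = 0.59).

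The 24 h curve differed between the biological replicates in 0 members, with 0% of all genes called. At an unadjusted p under 0.05 there were 7 members (3.48%) against 3.06% of all genes, and DESeq2 and limma called 0. CG8389 and CG8665 had the lowest p. Their amplitudes were 0.90 and 0.92 in replicate 1 and 0.20 and 0.24 in replicate 2 (edgeR, adjusted p = 0.98 and 0.98).

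The 24 h curve also differed between day 1 and day 2 in 0 members, with 0% of all genes called. The unadjusted p was under 0.05 in 7 members (3.48%) against 6.82% of all genes, and DESeq2 and limma called 0 members. The lowest were CG10345 and CAH5, a carbonic anhydrase (edgeR, adjusted p = 0.68 and 0.68). These 4 results show no member beyond the adjusted threshold and do not show that days or replicates were alike.

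The level differed between the biological replicates in many genes, and in a share of the members not far from that of all genes. The test, edgeR with the replicate as the term, called 78 of the 201 members (38.8%), where 33.2% of all genes tested were called. Of these, 32 were higher in replicate 2, where 17.6% of all genes were called higher, and 46 were lower, where 15.5% of all genes were called lower. The median log2 difference, replicate 2 minus replicate 1, was -0.11 over the members and 0.03 over all genes. The 3 members of lowest p are known by identifier only.

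Subunits of complex I were among the members lower in replicate 2. ND-75 fell by 0.38, ND-42 by 0.38 and ND-30 by 0.43 on the log2 scale (edgeR, adjusted p = 0.0074, 0.0093 and 0.0019). Enzymes went both ways. Of the 5 in the nucleotide, amino sugar and one-carbon groups, r fell by 0.64, Gfat1 by 0.38 and Mthfs by 0.43, and CG8665 was higher by 0.56 (edgeR, adjusted p = 0.013, 0.0013, 0.0097 and 0.027). AhcyL2 was not called, with a difference of -0.025 (edgeR, adjusted p = 0.91). Lower in replicate 2 were also Gclm, which fell by 0.41 (edgeR, adjusted p = 0.0038), and others. Obp99a fell by 1.03, UK114 by 0.52 and SC35 by 0.48 (edgeR, adjusted p = 0.042, 0.00035 and 0.00019). Higher in replicate 2 were Myc by 2.81, CG6409 by 0.50, Slob by 0.49, CG10175 by 0.64 and maf-S by 0.42 (edgeR, adjusted p = 0.020, 0.014, 0.019, 0.00026 and 0.00068). The Myc difference includes the 44 h library of replicate 2, which at 2836 counts was 5.52 times the next highest library, and its size without that library is not given here. Of the lysosomal, immune and endosomal groups, 0 of 15 members were called, where 33.2% of all genes tested were called. These groups were put together here after their values were seen. The count therefore does not show that such genes were alike in the 2 replicates. Alignments that were not unique made up 9.47% to 36.9% in replicate 1 and 3.92% to 7.33% in replicate 2 apart from its 28 h library, and what in the crosses or libraries set the 2 replicates apart cannot be told apart from the replicate itself.

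The limits of the rule cut through a continuum. The members of highest F-test p were ect and CG10345, at 0.0497 and 0.0499, and the nearest genes outside, CG14414 and one known by identifier only, were both at 0.0504. At the early limit AhcyL2 and Usp8 peaked at 12.2 h and betaggt-I and a gene known by identifier only, just outside, at 11.6 and 11.9 h. At the late limit Fbxo42 and Myo31DF peaked at 17.96 and 17.997 h, and CTCF and mRpL12, just outside, at 18.02 and 18.05 h.

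Of the 163 members with a symbol, all could be placed on Release 6 of the genome through RefSeq. The shares on the chromosome arms were 16% on X, 19.6% on 2L, 23.3% on 2R, 13.5% on 3L and 27.6% on 3R, against 14.6%, 19.3%, 20.6%, 20% and 24.8% of all genes with a name. There were 15 pairs of members within 20000 bases of each other. CG17107, CG7299 and CG7296 form one run on 2L with gaps of 899 and 1715 bases, and peaks at 15.8, 13.4 and 13.6 h. CG2681 and CG2685 on X are 88 bases apart and ea and mRpL9 on 3R 330 bases, with peaks 2.57 and 2.27 h apart. Usp8 and SNF4Agamma are 2525 bases apart with peaks 4.52 h apart. Another annotated gene overlaps 76 of the 163, among them Myc, r, Slob, Sirup with Wwox, mRpL9 with Fkbp39 and tobi with rha. These are overlaps of whole gene spans, and exons were not compared. The kit does not mark strand, so that reads cannot be told apart where exons of 2 genes on opposite strands overlap.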

How the data were processed

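TRAP-seq libraries of adult heads were made with a TruSeq v2 kit from poly-dT selected RNA, at 12 time points in each of 2 biological replicates and with 2 technical data sets per library, 48 in all. The authors aligned the reads to BDGP6 with TopHat2 2.0.9 and counted reads per gene with HTSeq 0.6.1, per the labels and their processing notes, which also name SAMtools 0.1.19, and the strand setting is not given in the sources used here. The deposited files hold raw counts per gene. Rows of HTSeq that name no gene were left out of library totals, and the alignments reported as not unique were kept as a measure of each library. The 2 data sets of each time point and replicate were summed as technical repeats. In replicate 1 the second is labelled as another run of the first apart from 16 h, where the titles have different letters, as they do in replicate 2 (c and g). Nothing says how far the crosses of the 2 replicates were apart, so that p-values measure the spread between these 24 libraries.

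Size factors were medians of ratios, and the fit was on log2(normalized count + 1) with Python 3.11.15, numpy 2.4.6 and scipy 1.17.1, at a mean of 20 counts or more. Tests across genes used edgeR 4.0.16 (quasi-likelihood, Benjamini-Hochberg adjustment over all 9392 genes, threshold 0.05) in R 4.3.3, with DESeq2 1.42.0 and limma 3.58.1 as alternatives. The scripts were tested on simulated data. Alternatives were TMM, quantile and library-total scaling, other filters and pseudocounts, no replicate block, single data sets, leaving out a replicate or a library, and JTK_CYCLE. The letter in the titles as a block, leaving out the 44 h library of replicate 2, and counts without both other libraries, were added after seeing the data. Dividing by size factors from 0.268 to 2.54 makes a normalized count a value relative to the other genes of its library. Counts in shallow libraries carry more counting error, and PCR duplicates were not removed here.

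The members and the gene lists were chosen with earlier results of these data known. The genes named by rule were the 12 members of lowest F-test p, the 6 of largest amplitude at a mean of 100 counts or more, the 5 most abundant, members of a gene list, the 3 of lowest p in a test among those called, and those next to a limit, with genes known by identifier only left unnamed. All other genes named were chosen after their values were seen. Symbols came from the study's supplementary tables and RefSeq synonyms for 1892 of the 17558 genes, and positions from RefSeq, Release 6. Of 30 gene lists, 6 held a member and 24 held 0, but few of the genes in those 24 could be looked up by name: 4 of 13 for ER folding, 1 of 15 heat shock proteins, 3 of 16 for glycolysis, 8 of 17 for lipids, 2 of 15 for insulin and TOR signalling, 1 of 13 transmitter receptors and 0 of 10 neuron and 0 of 9 muscle markers. The 38 members without a symbol could not be compared with the names that the study discusses.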

Additional observations from a re-analysis of the deposited data

How the results depend on the processing

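The rule kept 201 members, and between 145 and 254 genes under 14 other settings of scaling, filter, pseudocount, replicate term, data sets and libraries, with shared members from 114 with library-total scaling and 125 without both libraries to 200 with a pseudocount of 5. With the letter of the titles as a block, added after seeing the data, the rule gave 280 genes, 157 of them members. JTK_CYCLE on quantile normalized counts gave 44 genes in the interval, of which 32 were members. It needed an adjusted p under 0.05 and an amplitude over 0.5 at periods of 20 to 28 h, unlike the rule. At any peak time it called 51 members (25.4%) against 2.82% of all genes tested, a share that the choice of members raises. Leaving out each biological replicate in turn gave 130 to 236, of which 52 and 78 were members. The count-based 24 h model called 15 members and 55 genes in all, and with DESeq2 34 members and 142 genes in all. It called 4 members with data sets 1 and 3 alone, 13 without the 16 h library of replicate 1 and 11 without the 28 h library of replicate 2. When a replicate was left out it called 0 members. Without the replicate block, the rule gave 145 genes, 137 of them members, and the count-based model called 9 members. The replicates come from independent crosses, and the differences between replicates at 66 pairs of time points correlated at -0.72 to 0.66, with a median of 0.19 and 45 over 0.1. The difference between days, with 0 members, called 1 with data sets 1 and 3 alone. The other tests with 0 members called 0 under every alternative run, and the level between replicates called 56 to 81 members. For most of these alternatives the count over all genes is not given here, and the numbers do not set members apart from other genes. For 40 genes named by rule, or next to a limit, the fitted height at the peak time had 637 values under an alternative. The direction was kept in all of them, 488 stayed on their side of p 0.05, 141 lost it, of which 37 when a replicate was left out, and 8 gained it. The cause of these changes was not tested. Each height was taken at the peak time fitted to these same libraries, so that a kept direction was nearly fixed in advance and gives no support. At 28 h in replicate 1 one technical data set held 91 counts, so that the other supplied nearly the whole library.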

Other observations

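Single pairs of members deviated together apart from the 24 h curve. After the replicate and the 24 h terms were removed, the remaining deviations over the 24 libraries, which share depth and handling within a library, correlated at 0.79 between the complex I subunits ND-42 and ND-30, and at 0.79 without both libraries that stand apart. The glutathione enzyme subunit Gclm and UK114 reached 0.80, Obp99a and UK114 0.77, and CG8389 and CG8665 0.77. The median over all pairs of members was 0.02, so that this does not hold of the members at large. The pairs named were picked from the highest after their values were seen, and pairs of other genes were not compared.

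The members that were called higher in replicate 2 had longer gene spans than those called lower, the direction also seen over all genes. Their gene span had a median of 13078 bases, in 14 of 32 with a known span, against 2056 bases in 31 of 46 members that were lower. Over all genes with a known span the medians were 7659 and 1986.5 bases. The 44 h library of replicate 2 held the highest value of Myc, mahe, Su(Tpl), CG5953, sif, rgn and HmgZ among others, with 672 counts of sif against 481 in the next library.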
